A study of Mus musculus with 2 samples.

Results

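Basophils were examined in droplet single-cell RNA sequencing (10x Genomics, 3′ chemistry) of blood cells enriched for neutrophils from WT mice and from APP/PS1 mice, a transgenic line that carries mutant APP and PS1 genes of familial Alzheimer disease. The methods name C57BL/6J as the strain without transgenes, and the promoter that drives the transgenes is not given in the sources used here. There was 1 library of each genotype, made from 3 pooled female mice at 7 months of age, with no further treatment in either group. The members were chosen by a rule on the counts: at least 1000 unique molecular identifiers (UMIs, counted transcript molecules), at most 10% mitochondrial UMIs, S100a8 and S100a9 together under 4% of UMIs, and at least 5 UMIs summed over Mcpt8, Gata2, Ms4a2, Cpa3 and Prss34. The rule found 119 members, 73 of the 16281 WT cells and 46 of the 16725 APP/PS1 cells that passed the depth and mitochondrial limits. In all, 34768 barcodes were deposited, 17123 for WT and 17645 for APP/PS1, with 92458623 and 84870864 UMIs. The blood was depleted of red cells by lysis and of other leukocytes by a negative-selection kit before loading, so a share of these cells is not a share of blood leukocytes. The labels call the cells neutrophils, and the basophils were among the cells that came through the enrichment. With 1 library per genotype there was no replicate check and no test between genotypes, and the cells of a library are not replicates of a genotype. Levels are given as CPM, the summed UMIs of the members scaled to a common total, with exact Poisson 95% intervals, and ratios of APP/PS1 to WT with exact conditional 95% intervals, and these intervals cover counting error only.

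Basophils are rare granulocytes of the blood that develop under Gata2 and interleukin 3 and hold granules of proteases, proteoglycan and histamine. They carry the high-affinity receptor for IgE, and when it is cross-linked by antigen they degranulate and release histamine, lipid mediators, chemokines and the type 2 cytokines interleukin 4 and interleukin 13. Mast cells share much of this programme but live in tissue, carry the receptor Kit and make chymases and tryptases that mouse basophils mostly lack.

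Of the genes the rule used, all but Prss34 were spread over most members. Gata2, the transcription factor that basophils need, was detected in 100% of the members of both libraries. Ms4a2, the beta chain of the IgE receptor, was detected in 89.0% of WT and 95.7% of APP/PS1 members, and Mcpt8, the basophil granule protease, in 76.7% and 78.3%. Cpa3, a granule carboxypeptidase shared with mast cells, was detected in 74.0% and 82.6%, and the serine protease Prss34 in 15.1% and 19.6%. These values describe how the cells were selected. Of the WT members, 10 held all 5 genes, 33 held 4, 21 held 3, 5 held 2 and 4 held 1. Of the APP/PS1 members, 8 held all 5, 23 held 4, 12 held 3, 2 held 2 and 1 held 1. Few cells lay near the limit of 5 UMIs. Among cells that met the other limits, 4 WT cells had 3 UMIs of the rule genes, 1 had 4, 1 had 5 and 4 had 6, and 2 APP/PS1 cells had 3, 1 had 4, none had 5 and 1 had 6. A further 15 WT and 3 APP/PS1 cells met the rule's marker limit but had 4% or more of S100a8 and S100a9, the calcium-binding proteins that neutrophils make in abundance. No cell that met the marker limit was removed by the depth or mitochondrial limits.

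Fcer1a and Cd200r3, markers that the rule did not use, accorded with the label. Fcer1a, the IgE-binding alpha chain, was detected in 80.8% of WT and 84.8% of APP/PS1 members, and Cd200r3, an activating receptor of basophils and mast cells, in 84.9% and 80.4%. Hdc, the enzyme that makes histamine, was detected in 95.9% and 95.7%, but in summed UMIs it stood at 1873 and 1583 CPM in the cells with neutrophil genes and does not set basophils apart from them here. Every member also held 3 or more UMIs of the neutrophil list, and 10 WT and 4 APP/PS1 members held 100 or more. Only 3 WT members and 1 APP/PS1 member held no UMI of Fcer1a, Cd200r3 and Hdc, and these had Gata2 as their only rule gene. Of them, the WT members of 1717 and 2561 UMIs held 49 and 51 UMIs of the platelet list. The remaining WT member held 1 UMI of Kit and the APP/PS1 member held 4, so in these cells the markers did not accord with the label. Mast cell genes other than Kit were nearly absent. Mcpt4, Tpsb2, Tpsab1 and Mrgprb2 were at 0 UMIs in both libraries, where 3 counts would correspond to 4.93 CPM in WT and 10.2 in APP/PS1. Of the eosinophil list, Epx, Prg2, Il5ra and Ear1 were at 0 UMIs, and the summed list stood at 36.2 CPM in WT and 37.3 in APP/PS1, from Siglecf and Ccr3. The plot of UMIs per cell sets the rule genes beside the markers outside the rule.

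**Figure D1:**
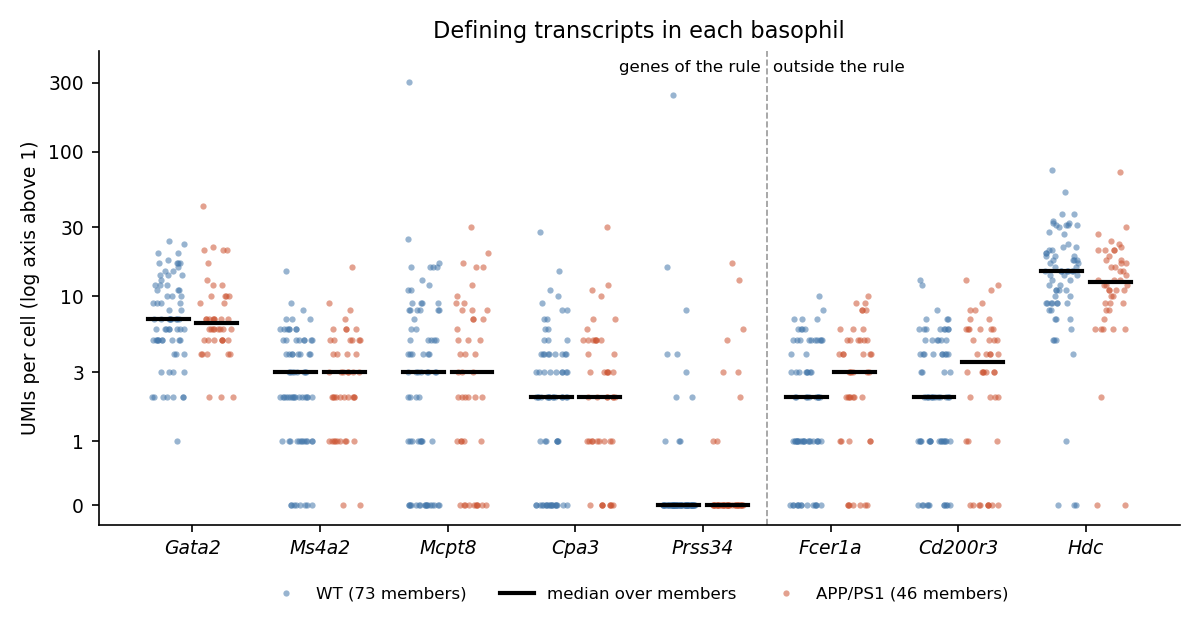
UMIs per cell (vertical axis, log scale above 1) of the 5 rule genes and of 3 markers outside the rule in each of the 73 WT and 46 APP/PS1 members, with black bars at the median. Gata2 and Hdc were present in nearly every member, Prss34 in few, and 1 WT member stood far above the others for Mcpt8 (304 UMIs) and Prss34 (248 UMIs).

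The members were not uniform, and this bears on every summed level below. The median member held 4670 UMIs in WT and 4849 in APP/PS1, but the range reached 58289 UMIs in WT and 21301 in APP/PS1. The 14 WT members over 10000 UMIs held 56.1% of the WT members' UMIs, and the 6 such APP/PS1 members held 33.0%. Of these, 12 in WT and 5 in APP/PS1 also held 10 or more UMIs of the monocyte list (Csf1r, Ms4a6c, Ly6c2, F13a1, Fn1 and Ccr2). Over the 73 WT members the monocyte list summed to 2559 CPM, with Ms4a6c its most abundant gene, and over the 46 APP/PS1 members to 1653 CPM. The erythroid list, led by the globin Hbb-bs, summed to 9518 CPM in WT and 11378 in APP/PS1, and 2 WT members and 1 APP/PS1 member with 100 or more of its UMIs carried most of it. Because large cells that hold genes of several types can be doublets and weigh heavily in a sum, a stricter set was formed after seeing the data. It left out members with 10 or more UMIs of the monocyte, T cell, B cell, NK cell, platelet or plasma cell lists, 100 or more of the erythroid list, 2 or more of Kit, or no UMI of Fcer1a, Cd200r3 and Hdc. The stricter set held 83 members, 48 WT and 35 APP/PS1, with 210945 and 159388 UMIs. In it the monocyte list stood at 536 CPM in WT and 496 in APP/PS1, and the erythroid list at 863 CPM and 358 CPM. It set no limit on neutrophil genes, and 3 WT and 2 APP/PS1 members of it held 100 or more UMIs of the neutrophil list, at most 332.

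**Figure D2:**
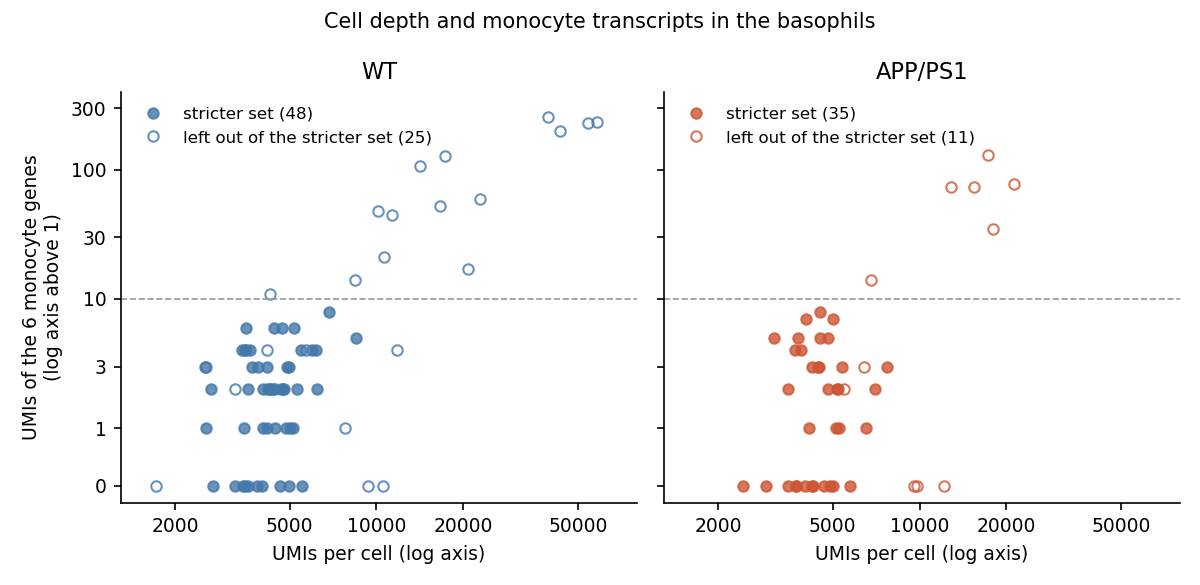
UMIs of the 6 monocyte genes (vertical axis, log scale above 1) against all UMIs of the cell (horizontal axis, log scale) for each member, with filled points in the stricter set and open points left out of it. The deepest cells of both libraries were also those with the most monocyte transcripts, and the dashed line marks the limit of 10 UMIs.

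Another kind of member was marked by Kit, the stem cell factor receptor of mast cells and progenitors. In each library 3 members held 2 or more Kit UMIs, with medians of 11772 UMIs in WT and 9829 in APP/PS1. They held every UMI of Scin, an actin-severing protein, with 35 UMIs in WT and 52 in APP/PS1. They also held 57.8% of the WT members' and 73.9% of the APP/PS1 members' UMIs of Gzmb, the protease granzyme B, and 90.9% and 96.4% of those of Stmn1, a microtubule protein of dividing cells. The same members held no UMI of Cd200r3 or Prss34, none of Mcpt8 in WT and 1 in APP/PS1, and 7 UMIs of the chemokine Ccl4 in WT and none in APP/PS1. By contrast all 43 other APP/PS1 members held at least 7 UMIs of Ccl4, and 67 of the 70 other WT members held at least 1. The Kit-positive members were too few to name, and they are left out of the stricter set. Of all barcodes, 83 occurred in both libraries: 1 belonged to a WT member and 1 to an APP/PS1 member, and none was a member in both.

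Promoters are shown for the genes that set these cells apart, the IgE receptor chains, the granule proteases and Cd200r3. The windows are the 150 bases before the RefSeq transcription start on GRCm38.p6, written 5′ to 3′ on the gene's strand, and capitals mark the GATA motif AGATAA or its reverse complement TTATCT. They lie at chr19:11623720-11623869 (Ms4a2, minus strand), chr3:20242182-20242331 (Cpa3, minus strand), chr17:25298244-25298393 (Prss34, plus strand), chr1:173227230-173227379 (Fcer1a, minus strand), chr16:44943528-44943677 (Cd200r3, plus strand) and chr14:56085198-56085347 (Mcpt8, minus strand).
Ms4a2: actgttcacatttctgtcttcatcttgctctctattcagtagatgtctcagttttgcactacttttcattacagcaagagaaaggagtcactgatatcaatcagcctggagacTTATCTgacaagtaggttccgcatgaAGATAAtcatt
Cpa3: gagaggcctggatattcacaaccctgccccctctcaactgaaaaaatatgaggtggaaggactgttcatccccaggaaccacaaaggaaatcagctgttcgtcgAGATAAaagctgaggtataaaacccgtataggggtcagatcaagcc
Prss34: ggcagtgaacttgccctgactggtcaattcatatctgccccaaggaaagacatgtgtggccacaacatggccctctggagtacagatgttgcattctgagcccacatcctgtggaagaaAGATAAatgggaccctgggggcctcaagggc
Fcer1a: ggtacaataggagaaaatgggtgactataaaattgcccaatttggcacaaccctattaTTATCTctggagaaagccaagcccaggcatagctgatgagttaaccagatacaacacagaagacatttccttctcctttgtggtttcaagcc
Cd200r3: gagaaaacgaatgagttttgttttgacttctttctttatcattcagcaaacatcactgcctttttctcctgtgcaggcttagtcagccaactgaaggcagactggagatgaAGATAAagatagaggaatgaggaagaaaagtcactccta
Mcpt8: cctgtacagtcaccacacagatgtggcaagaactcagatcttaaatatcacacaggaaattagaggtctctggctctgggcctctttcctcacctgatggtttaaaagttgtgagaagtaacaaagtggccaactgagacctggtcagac
The motif began 37 and 11 bases before the start of Ms4a2, 46 before that of Cpa3, 31 before that of Prss34, 92 before that of Fcer1a and 39 before that of Cd200r3. It was found in 5 of the 8 genes looked up, and was not in these windows of Mcpt8, Gata2 or Hdc. Of all 32851 RefSeq promoters of the same length, 1855 (5.65%) held it. The genes were picked after their levels were known, and the match describes the letters and not a bound site.

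The share of basophils was lower in the APP/PS1 library. They made up 0.448% of WT cells (exact Clopper-Pearson 95% interval 0.352 to 0.563) and 0.275% of APP/PS1 cells (0.201 to 0.367), a difference of -0.173 percentage points (Newcombe 95% interval -0.307 to -0.0438). Among the cells under the S100a8 and S100a9 limit, 7961 in WT and 7390 in APP/PS1, the shares were 0.917% and 0.622%, a difference of -0.295 points (-0.576 to -0.0157). The stricter set narrowed the gap: 0.295% of WT cells and 0.209% of APP/PS1 cells differed by -0.0856 points, with an interval of -0.198 to 0.0235 that included no difference. With 1 pool of mice and 1 enrichment per genotype, a genotype difference and a difference between pools or enrichments cannot be told apart.

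The transcripts that stood highest over the cells with monocyte genes were those of the basophil programme. The comparison was made with 5210 such cells in WT and 4013 in APP/PS1, chosen by 5 or more UMIs of the monocyte list. They also had to have S100a8 and S100a9 under 4% of UMIs and under 5 UMIs of the rule genes. For the 5 rule genes the choice of cells thus acted on both sides of the ratio. Of 1295 genes counted, 175 (13.5%) were over 2-fold higher in the basophils in both libraries. By ratio over both libraries together, the 15 highest were Cd200r3, Prss34, Ms4a2, Csrp3, Mcpt8, Cpa3, Fcer1a, Cyp11a1, Gata2, Alox15, Il6, Il4, Cdh1, Ccl4 and Klf5. All genes in cells picked on 5 of them are tied to that choice, so these ratios describe the cells and test nothing. Cd200r3 had 405 UMIs in the basophils and 4 in the monocyte-gene cells, a ratio of 7898 (3061 to 29126). Csrp3, a LIM-domain protein best known from muscle, had 299 UMIs in the basophils and 6 in the monocyte-gene cells, a ratio of 3887 (1765 to 10677). Its level was 280 CPM in WT and 438 in APP/PS1 basophils, against 0.904 and 0.347 CPM in the cells with neutrophil genes. Cyp11a1, the enzyme that starts steroid hormone synthesis from cholesterol, stood at 654 CPM in WT and 784 in APP/PS1 basophils, a ratio to the monocyte-gene cells of 1326 (952 to 1901). It was detected in 66 of 73 WT and 45 of 46 APP/PS1 members. Between genotypes the ratio turned in the stricter set, from 1.57 to 0.966 (0.730 to 1.27) for Csrp3 and from 1.20 to 0.802 (0.659 to 0.972) for Cyp11a1. Cdh1, the adhesion molecule E-cadherin, stood at 191 CPM and 204 CPM and was present in 51 WT and 34 APP/PS1 members. Little Cyp11a1 was found outside the basophils: thinned to 1000 UMIs a cell, Cyp11a1 had a UMI in 53.4% of WT and 58.7% of APP/PS1 basophils but in 0.1% and 0 of 2000 sampled cells with neutrophil genes. The plot of levels by class shows genes of the basophil lists over all the cell classes, and Csrp3, Cyp11a1, Cdh1, Alox15 and Klf5 are not in it.

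**Figure D3:**
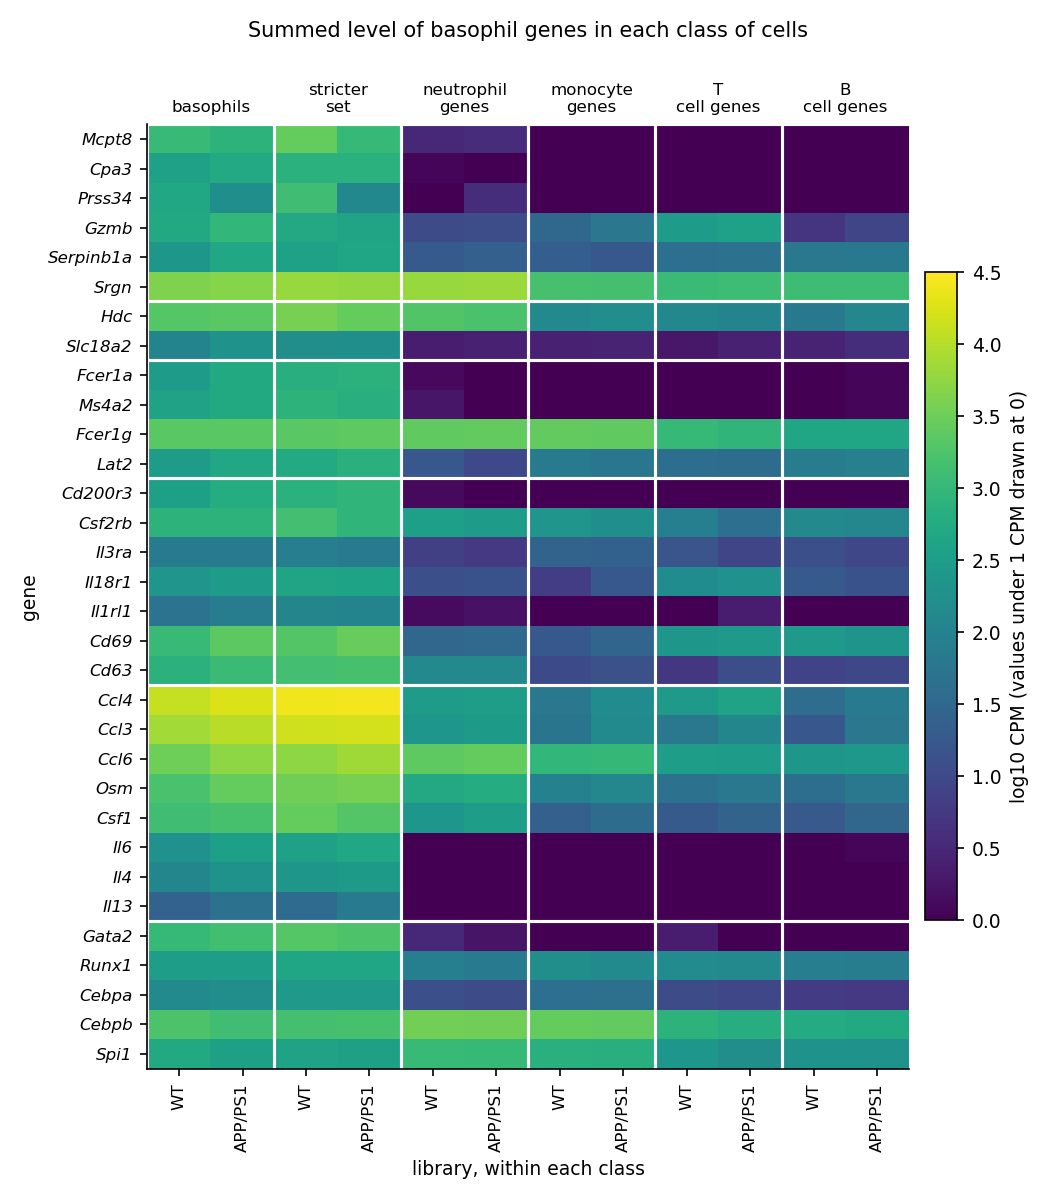
Summed level of 32 basophil-list genes in log10 CPM (colour; values under 1 CPM drawn at 0) in the WT and APP/PS1 libraries, for basophils, the stricter set and the cells with neutrophil, monocyte, T cell or B cell genes. The IgE receptor chains Fcer1a and Ms4a2, Cd200r3, Il4, Il6 and Il13 were near 0 outside the basophils, whereas Srgn, Fcer1g, Hdc, Ccl6, Cebpb and Spi1 were also high in neutrophil-gene cells.

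The granule genes were led by Srgn, the core protein of serglycin proteoglycan, which binds proteases and histamine in granules. Srgn stood at 4223 CPM (4061 to 4390) in WT and 4804 CPM (4557 to 5061) in APP/PS1 basophils, levels that were also reached in the cells with neutrophil genes, at 6461 and 6579 CPM. Its APP/PS1 to WT ratio was 1.14 (1.07 to 1.21) over all members and 0.912 (0.839 to 0.992) in the stricter set. Mcpt8 stood at 1069 CPM (988 to 1154) in WT and 825 CPM (725 to 936) in APP/PS1, against 3.36 and 3.79 CPM in the cells with neutrophil genes. As Mcpt8 was a gene of the rule, this gap was tied to the choice of members. Cpa3 stood at 378 CPM (331 to 430) and 567 CPM (484 to 660). Summed over all members, Mcpt8 and Prss34 were higher in WT and Cpa3 in APP/PS1, but Cpa3 stood at 735 and 740 CPM in the stricter set, a ratio of 1.01 (0.786 to 1.29). The WT levels of Mcpt8 and Prss34 rested on 1 cell of 6866 UMIs that held 607 UMIs of the rule genes, where the next WT member held 72. This cell supplied 46.8% of the WT Mcpt8 UMIs and 85.5% of the Prss34 UMIs. The APP/PS1 to WT ratio of Mcpt8 was 0.772 (0.663 to 0.896) with it and 1.43 (1.21 to 1.69) without it, and that of Prss34 was 0.363 (0.264 to 0.490) with it and 2.48 (1.62 to 3.82) without it. The stricter set, which kept this cell, gave 0.388 (0.324 to 0.462) for Mcpt8 and 0.0952 (0.0573 to 0.150) for Prss34, and without it 0.804 (0.658 to 0.979) and 0.854 (0.459 to 1.55). Summed over all members, both directions turned on this cell, whereas in the stricter set both ratios stayed below 1 without it. The median WT member held 673 CPM of Mcpt8 against 496 CPM in the median APP/PS1 member.

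Gzmb, a protease best known from cytotoxic lymphocytes, stood at 538 CPM (481 to 599) in WT and 964 CPM (855 to 1083) in APP/PS1 basophils, a ratio of 1.79 (1.52 to 2.11). It was found in 37 of 73 WT and 18 of 46 APP/PS1 members, and much of it lay in the Kit-positive members. Without them the ratio was 1.15, and in the stricter set 0.806 (0.586 to 1.10). Serpinb1a, an inhibitor of granule serine proteases, stood at 243 CPM in WT and 486 in APP/PS1, a ratio of 1.99 (1.57 to 2.53) that was 1.26 (0.901 to 1.75) in the stricter set. Ctsg, cathepsin G, had 26 UMIs in WT and 4 in APP/PS1. The mast cell proteases Mcpt1, Mcpt2, Mcpt4, Tpsb2 and Tpsab1 had no UMI, and the chymase Cma1 had 2 UMIs in WT and 1 in APP/PS1. Srgn, Gzmb and Serpinb1a, the granule genes counted that the rule did not use, were over 2-fold above the monocyte-gene cells in both libraries, beside 13.5% of all genes.

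Hdc, which makes histamine from histidine, stood at 2038 CPM (1926 to 2154) in WT and 2271 CPM (2103 to 2450) in APP/PS1 basophils, a ratio of 1.11 (1.01 to 1.23). It was not confined to them: the cells with neutrophil genes held 1873 CPM in WT and 1583 in APP/PS1. Thinned to 1000 UMIs, 82.2% of WT and 87.0% of APP/PS1 basophils had a UMI of Hdc, beside 78.1% and 73.9% of the sampled cells with neutrophil genes. The stricter set gave a ratio of 0.734 (0.652 to 0.825), in the opposite direction. Slc18a2, the vesicular transporter that loads histamine into granules, separated the classes more clearly, at 105 CPM in WT and 207 in APP/PS1 basophils and 2.18 and 2.59 CPM in the cells with neutrophil genes. Its ratio was 1.97 (1.36 to 2.84), and 1.06 (0.620 to 1.79) in the stricter set. Hnmt, which breaks histamine down, had 4 UMIs in WT and none in APP/PS1 basophils, while the cells with neutrophil genes held 36.1 and 44.8 CPM.

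Of the lipid mediator genes, Alox5ap, the protein that presents arachidonic acid to 5-lipoxygenase, stood at 1383 CPM in WT and 1725 in APP/PS1, close to its level in cells with neutrophil genes (1382 and 1468 CPM). Ptgs2, the inducible cyclooxygenase of prostaglandin synthesis, stood at 661 CPM (598 to 729) in WT and 428 CPM (356 to 509) in APP/PS1 basophils. It was lower in APP/PS1 basophils with a ratio of 0.647 (0.525 to 0.792), and 0.682 (0.541 to 0.857) in the stricter set. Alox15, a lipoxygenase, stood at 109 and 153 CPM in all members and 242 and 157 CPM in the stricter set, against under 1 CPM in the cells with neutrophil genes or monocyte genes, and was found in 38 WT and 19 APP/PS1 members. Alox5 itself stood at 92.1 and 129 CPM. The last enzymes of the cysteinyl leukotriene and prostaglandin E pathways, Ltc4s and Ptges, had no UMI, and Hpgds of the prostaglandin D pathway had 1 in WT and none in APP/PS1. Of 4 lipid genes counted none was past 2-fold between the genotypes, beside 0.658% of all 1823 genes counted that were over 2-fold higher in APP/PS1 and 7.62% that were under 0.5.

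The alpha chain of the IgE receptor set the basophils apart, the beta chain did so by the choice of members, and the gamma chain did not. Fcer1a stood at 304 CPM (262 to 351) in WT and 547 CPM (465 to 638) in APP/PS1, a ratio of 1.80 (1.45 to 2.23). Ms4a2 stood at 386 CPM (339 to 439) and 543 CPM (462 to 634), a ratio of 1.41 (1.14 to 1.73). In the cells with neutrophil genes both were at or under 1.86 CPM. Fcer1g, the gamma chain that many Fc receptors share, stood at 2233 CPM in WT and 2210 in APP/PS1 basophils, a ratio of 0.990 (0.900 to 1.09), and at 2539 and 2663 CPM in the cells with neutrophil genes. The stricter set gave 1.18 (0.923 to 1.51) for Fcer1a and 0.823 (0.641 to 1.05) for Ms4a2, so that both intervals included no difference and Ms4a2 lay on the other side. Lat2, an adaptor below the receptor, stood at 294 and 509 CPM, a ratio of 1.73 (1.38 to 2.16), and 1.27 (0.975 to 1.65) in the stricter set. The kinases Lyn and Syk, which start signalling from the receptor, were lower in the basophils than in the cells with neutrophil genes: Lyn stood at 258 and 187 CPM against 401 and 387 CPM, and Syk at 186 and 109 CPM against 405 and 341 CPM. Of 9 genes of the IgE list counted, none was over 2-fold higher in APP/PS1 and 2 were under 0.5, beside 0.658% and 7.62% of all genes, and the median log2 ratio was -0.38 beside -0.12. In the stricter set 4 were counted and none was past 2-fold, with a median of 0.19 beside -0.07.

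Among the cytokine receptors, Csf2rb, the signalling chain shared by the receptors for interleukin 3, interleukin 5 and GM-CSF, stood at 806 CPM in WT and 811 in APP/PS1, a ratio of 1.01 (0.859 to 1.18) and 0.633 (0.515 to 0.775) in the stricter set. Its mouse copy Csf2rb2, which serves interleukin 3 only, stood at 242 and 343 CPM, against 29.0 and 24.5 CPM in the cells with neutrophil genes. The 2 genes are close copies, and reads that fit both could have been left out or split in the counting. Il3ra, the interleukin 3 receptor alpha chain, stood at 67.4 and 67.9 CPM, a ratio of 1.01 (0.559 to 1.76). Both chains of the interleukin 18 receptor were present, Il18rap at 275 and 424 CPM and Il18r1 at 219 and 295 CPM. The Il18r1 ratio was 1.35 (1.02 to 1.78) over all members and 0.978 (0.698 to 1.36) in the stricter set. Il1rl1, the receptor for interleukin 33, stood at 52.6 CPM (36.0 to 74.3) and 78.1 CPM (49.5 to 117), and at 1.36 and 1.64 CPM in the cells with neutrophil genes. Of the cytokine receptors, 4 of 6 were over 2-fold above the monocyte-gene cells in both libraries, beside 13.5% of all genes. Between genotypes 9 were counted, none over 2-fold and 2 under 0.5, beside 0.658% and 7.62% of all genes. In the stricter set 4 were counted and none was past 2-fold.

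The other surface receptors were led by Cd69, a lectin that appears on leukocytes soon after activation, and by Cd63, a membrane protein of granules that reaches the surface on degranulation. Cd69 stood at 1112 CPM (1029 to 1199) in WT and 2292 CPM (2122 to 2471) in APP/PS1 basophils. Its ratio was 2.06 (1.85 to 2.30) over all members and 1.45 (1.27 to 1.66) in the stricter set, on the same side. In the cells with neutrophil genes it stood at 30.8 and 34.2 CPM, a ratio of 1.11. Cd63 stood at 765 CPM in WT and 1171 in APP/PS1, a ratio of 1.53 (1.33 to 1.76), but 1.10 (0.926 to 1.30) in the stricter set. Cd200r3 stood at 365 and 621 CPM, a ratio of 1.70 (1.39 to 2.08), and 1.13 (0.897 to 1.43) in the stricter set. C3ar1, the receptor for complement C3a, stood at 130 and 163 CPM against under 1 CPM in the cells with neutrophil genes, and Itga2, the integrin behind the DX5 epitope, at 107 and 132 CPM. In the stricter set their ratios were 0.553 (0.343 to 0.872) and 0.647 (0.370 to 1.10), below 1 where those over all members were 1.25 and 1.24. Ptgdr2, the prostaglandin D2 receptor often used to stain basophils, had 1 UMI in WT and none in APP/PS1, and the histamine receptor Hrh4 had 7 and 2. Of 14 receptors counted, Cd69 alone was past 2-fold between genotypes, beside 0.658% of all genes over 2-fold and 7.62% under 0.5. Of the 14, 7 were over 2-fold above the monocyte-gene cells in both libraries, beside 13.5% of all genes.

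Chemokines and cytokines held more UMIs than any other functional list. Summed over 19 genes, the list reached 30813 CPM in WT and 43548 in APP/PS1 basophils. It stood at 19907 and 20172 CPM in the cells with neutrophil genes and at 3536 and 3925 CPM in the monocyte-gene cells. Ccl4 and Ccl3, chemokines that draw monocytes and lymphocytes, made up most of the list in the basophils. Ccl4 stood at 12653 CPM (12371 to 12938) in WT and 18650 CPM (18160 to 19150) in APP/PS1, a ratio of 1.47 (1.42 to 1.53). Ccl3 stood at 7476 CPM (7260 to 7696) and 10586 CPM (10218 to 10965), a ratio of 1.42 (1.35 to 1.48). Both were far lower in the cells with neutrophil genes, Ccl4 at 305 and 328 CPM and Ccl3 at 234 and 289 CPM. Thinned to 1000 UMIs, 90.4% of WT and 93.5% of APP/PS1 basophils held a UMI of Ccl4, beside 12.4% and 11.3% of the sampled cells with neutrophil genes. The gap between genotypes was smaller in the stricter set, where the list summed to 58570 and 60262 CPM, a ratio of 1.03 (1.002 to 1.057). There Ccl4 stood at 25765 and 26464 CPM, a ratio of 1.03 (0.986 to 1.07), and Ccl3 at 15179 and 15622 CPM, a ratio of 1.03 (0.976 to 1.08). The median cell held 18588 CPM of Ccl4 in WT and 22192 CPM in APP/PS1.

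Ccl6, a myeloid chemokine, stood at 3268 CPM in WT and 5341 in APP/PS1 basophils, a ratio of 1.63 (1.53 to 1.75) that was 1.30 (1.20 to 1.42) in the stricter set. It was lower but also abundant in the cells with neutrophil genes, at 2448 and 2733 CPM. Osm, the cytokine oncostatin M, stood at 1631 and 2740 CPM, a ratio of 1.68 (1.53 to 1.85) and 1.14 (1.02 to 1.27) in the stricter set. Csf1, the growth factor of macrophages, stood at 1306 CPM (1216 to 1400) and 1521 CPM (1383 to 1669), and lay on the other side in the stricter set, at 0.724 (0.630 to 0.831). Ccl9 stood at 1373 and 1511 CPM, and its ratio was 1.10 over all members and 0.778 (0.679 to 0.889) in the stricter set. The myeloid chemokines and growth factors were thus abundant in both libraries, with no common direction between genotypes in the stricter set.

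The type 2 cytokines were present at lower levels and were nearly confined to the basophils. Il4, the cytokine that drives type 2 helper T cells and IgE switching, stood at 118 CPM (92.6 to 149) in WT and 204 CPM (155 to 262) in APP/PS1, and at 0.954 and 0.486 CPM in the cells with neutrophil genes. It was found in 36 of 73 WT and 29 of 46 APP/PS1 members. Il13, its relative in mucus production and parasite defence, stood at 26.3 CPM (15 to 42.7) and 47.5 CPM (26.0 to 79.8), in 12 and 11 members. Il6, a cytokine of acute inflammation, stood at 187 CPM (155 to 225) and 346 CPM (282 to 420), in 36 and 23 members, and at 0.879 and 0.254 CPM in the cells with neutrophil genes. The ratios were 1.72 (1.20 to 2.46) for Il4, 1.81 (0.817 to 3.95) for Il13 and 1.85 (1.40 to 2.43) for Il6. Stricter selection gave 1.22 (0.798 to 1.85) for Il4, 1.82 (0.667 to 5.21) for Il13 and 1.29 (0.932 to 1.79) for Il6, and none of these intervals excluded equal levels. Hgf, hepatocyte growth factor, stood at 224 and 319 CPM. Il9 and Retnla had no UMI.

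Cxcl2, a chemokine for neutrophils, stood at 719 CPM (653 to 789) in WT and 397 CPM (329 to 476) in APP/PS1 basophils, a ratio of 0.553 (0.447 to 0.679) and 0.447 (0.320 to 0.616) in the stricter set. It was far higher in the cells with neutrophil genes, at 3430 and 2529 CPM, where the ratio was 0.737. Thinned to 1000 UMIs, 20.5% of WT and 17.4% of APP/PS1 basophils held a UMI of Cxcl2, under the 70.5% and 61.8% of the sampled cells with neutrophil genes, so a part played by free RNA was not tested. The same holds for Il1b, at 1478 and 1548 CPM in basophils and 12455 and 13143 CPM in the cells with neutrophil genes. Of 12 cytokine genes counted, none was past 2-fold between genotypes in all members, beside 0.658% and 7.62% of all genes, with a median log2 ratio of 0.51. In the stricter set Cxcl2 alone of 11 was past it, where 0.677% of 591 genes were over 2-fold higher and 2.2% were under 0.5, and the median was 0.04. In both libraries 9 of the 12 stood over 2-fold above the monocyte-gene cells, beside 13.5% of all genes.

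**Figure D4:**
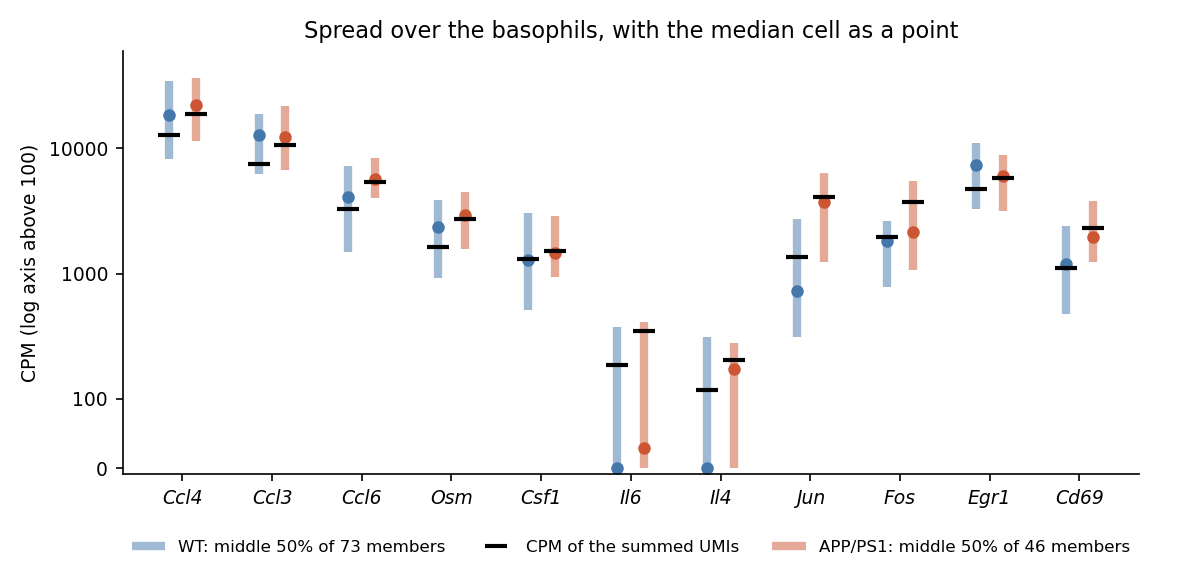
CPM per member (log axis above 100) of 11 genes in the WT and APP/PS1 libraries, with bars over the middle 50% of members, points at the median member and black dashes at the CPM of the summed UMIs. Ccl4 and Ccl3 were high in most members of both libraries, Il6 and Il4 were absent from many, and in WT the summed level lay under the median member for Ccl4, Ccl3, Osm and Egr1, among others.

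Of the transcription factors, Gata2 was a gene of the rule, so its height over other cells was tied to the choice of members. It stood at 1028 CPM in WT and 1372 in APP/PS1, against 3.21 and 1.73 CPM in the cells with neutrophil genes, and at 2048 and 1744 CPM in the stricter set. Its ratio was 1.33 (1.17 to 1.51) over all members and 0.852 (0.730 to 0.992) in the stricter set. Cebpa, which acts with Gata2 in the choice of the basophil fate, stood at 143 and 170 CPM, above the 12.4 and 10.9 CPM of the cells with neutrophil genes and the 44.0 and 45.6 CPM of the monocyte-gene cells. Runx1 stood at 316 and 340 CPM. Cebpb and Spi1, general myeloid factors, were lower in basophils than in the other myeloid classes: Cebpb at 1760 and 1331 CPM against 3448 and 3314 CPM in the cells with neutrophil genes, and Spi1 at 539 and 367 CPM against 1081 and 1020 CPM. The Cebpb ratio was 0.756 (0.672 to 0.850) over all members and 1.04 (0.877 to 1.23) in the stricter set. Of 12 transcription factors counted, Gata2 among them, none was over 2-fold higher in APP/PS1, beside 0.658% of all genes. Irf8, a factor of monocytes and dendritic cells, was under 0.5, beside 7.62% of all genes. The 67 WT and 16 APP/PS1 UMIs of Irf8 gave a ratio of 0.493 (0.267 to 0.860), and the stricter set held too little of it to count. Cell cycle genes summed to 25 UMIs in WT and 35 in APP/PS1, and none was high enough to count.

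Immediate early genes, which are switched on within minutes of stimulation or of cell handling, were mostly higher in the APP/PS1 library. Jun stood at 1350 CPM (1259 to 1446) in WT and 4074 CPM (3847 to 4312) in APP/PS1 basophils, a ratio of 3.02 (2.76 to 3.30). It was 1.89 (1.70 to 2.11) in the stricter set, and the median member held 728 CPM in WT and 3703 in APP/PS1. Fos stood at 1949 and 3725 CPM, a ratio of 1.91 (1.76 to 2.08), and 2.04 (1.83 to 2.29) in the stricter set. Zfp36, which destabilizes cytokine mRNAs, stood at 1760 and 3534 CPM, a ratio of 2.01 (1.84 to 2.19), and 1.57 (1.41 to 1.75) in the stricter set. Junb had a ratio of 1.45 (1.35 to 1.54), Ier2 of 1.60 (1.48 to 1.73) and Fosb of 1.74 (1.54 to 1.96). Egr1 went from 1.23 (1.15 to 1.30) over all members to 0.889 (0.825 to 0.957) in the stricter set. Also in the list but lower in APP/PS1 were Nr4a1 at 0.718 (0.574 to 0.893) and Atf3 at 0.557 (0.413 to 0.742), both of which were higher in the cells with monocyte genes than in the basophils. Of 10 genes counted, 2 (Jun and Zfp36) were over 2-fold and none was under 0.5, beside 0.658% and 7.62% of all genes, with a median log2 ratio of 0.60. Neither was past 2-fold in the stricter set, where Fos alone of 9 counted was over it and none was under 0.5, beside 0.677% and 2.2% of all genes, with a median of 0.52.

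The same direction was seen in other cells of the libraries. In the cells with neutrophil genes the ratio was 1.62 (1.58 to 1.67) for Jun, 1.55 (1.54 to 1.56) for Fos and 1.69 (1.68 to 1.71) for Zfp36. In the monocyte-gene cells it was 2.25 (2.20 to 2.30) for Jun, 1.45 (1.43 to 1.46) for Fos and 1.45 (1.42 to 1.47) for Zfp36. Fosb did not follow, at 0.966 (0.946 to 0.985) in the cells with neutrophil genes and 0.808 (0.780 to 0.838) in those with monocyte genes. The higher level of Jun, Fos and Zfp36 in APP/PS1 was thus not particular to the basophils, and whether it came with the genotype or with the handling of the library cannot be told apart. Dnajb1, a heat shock cochaperone, differed in this respect. It stood at 151 CPM (122 to 186) in WT and 404 CPM (335 to 483) in APP/PS1 basophils, a ratio of 2.67 (2.02 to 3.54) that was 2.90 (2.04 to 4.16) in the stricter set. In the cells with neutrophil genes its ratio was 1.07 (1.02 to 1.12) and in the monocyte-gene cells 0.986 (0.925 to 1.05). It was detected in 36 of 73 WT and 23 of 46 APP/PS1 members, close to the same share of members in each library. No test of the difference between classes can be made with 1 library per genotype.

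**Figure D5:**
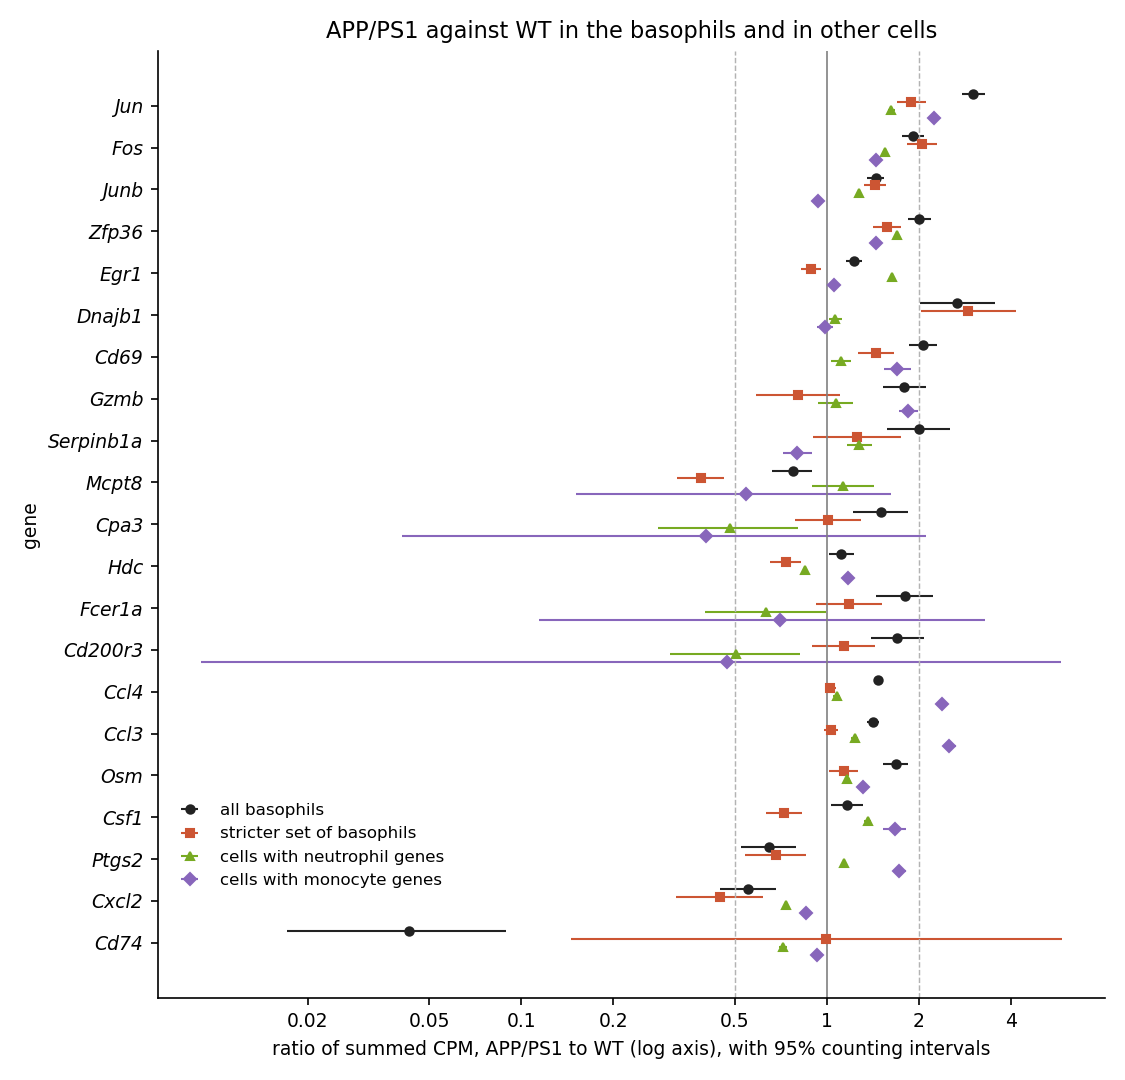
APP/PS1 to WT ratio of summed CPM (horizontal log axis) with 95% counting intervals for 21 genes, in all basophils, in the stricter set and in the cells with neutrophil or monocyte genes, with dashed lines at 0.5 and 2. Jun, Fos and Zfp36 lay above 1 in all 4, Dnajb1 lay above 2 in both basophil sets and near 1 in the others, Ptgs2 lay below 1 in the basophils and above 1 in the others, and Cd74 lay far below 1 where all members were summed.

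Among all 1823 genes counted, those with 50 or more UMIs in the members of at least 1 library, 12 were over 2-fold higher in APP/PS1 and 139 were under 0.5. The lower count depended on few cells: with members taken from 3 rule-gene UMIs, 78 in WT and 49 in APP/PS1, 12 of 1943 genes were over 2-fold higher and 16 were under 0.5. In the stricter set these counts were 4 and 13 of 591. The 5 highest were Scin, Jun, Lgalsl, Dnajb1 and Ddit4. Scin had a ratio of 3.07 (1.96 to 4.85), and all of it lay in the 3 Kit-positive members of each library. Lgalsl, a galectin-related protein, stood at 59.2 and 170 CPM, and its ratio was 2.87 (1.83 to 4.53), and 1.83 (1.01 to 3.37) in the stricter set. Ddit4, a stress-induced brake on mTOR signalling, stood at 83.9 and 200 CPM, a ratio of 2.39 (1.61 to 3.55), and 1.39 (0.875 to 2.21) in the stricter set. In the cells with neutrophil genes Ddit4 lay on the other side, at 0.556.

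The 5 lowest were Hbegf and 4 genes of antigen presentation by MHC class II, H2-Eb1, H2-Aa, Cd74 and H2-Ab1. Cd74, the invariant chain, stood at 556 CPM (498 to 618) in WT and 23.8 CPM (9.56 to 49.0) in APP/PS1, a ratio of 0.0428 (0.0171 to 0.0891). It was found in only 12 of 73 WT and 5 of 46 APP/PS1 members, and the highest WT member held 120 of its 338 UMIs. Over the 4 genes together the members held 643 UMIs in WT and 13 in APP/PS1, but the stricter set held 9 in WT and 8 in APP/PS1. The WT excess of class II transcripts therefore lay in members that the stricter set left out, those with transcripts of other cell types, and the grouping of these 4 genes was made after their values were seen. Hbegf, a growth factor of the EGF family, had 56 UMIs in WT, over 16 members, and none in APP/PS1. The exact conditional interval of its ratio over all members ran from 0 to 0.141. Against the level of 3 counts over the APP/PS1 members, the WT level was 9.04-fold higher, and 7.81-fold higher in the stricter set. These folds depend on the choice of 3 counts and are not lower bounds. Hbegf was low in APP/PS1 in the other classes too. Its ratio was 0.0366 (0.0296 to 0.0448) in the cells with neutrophil genes and 0.0406 (0.0283 to 0.0565) in the monocyte-gene cells.

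Interferon response genes had no common direction. Their summed level was 2514 CPM in WT and 1857 in APP/PS1, a ratio of 0.739 (0.669 to 0.815), but 602 and 1142 CPM in the stricter set, a ratio of 1.90 (1.5 to 2.40). Ifitm3 stood at 1837 CPM in WT and 1151 in APP/PS1, a ratio of 0.627 (0.553 to 0.708) that was 1.36 (0.983 to 1.87) in the stricter set. Isg15, a ubiquitin-like protein, stood at 105 and 221 CPM, in 16 and 11 members, and in both libraries it was higher in the cells with neutrophil genes, at 321 and 473 CPM. Its ratio was 2.10 (1.46 to 3.01) over all members and 7.18 (3.17 to 19.1) in the stricter set, from 7 WT and 38 APP/PS1 UMIs. Of 6 counted, Isg15 was over 2-fold and Oasl2 under 0.5, beside 0.658% and 7.62% of all genes, and none of the 4 compared stood over 2-fold above the monocyte-gene cells. Ifitm1, a relative outside that list, stood at 3568 and 4461 CPM, against 213 and 157 CPM in the monocyte-gene cells. Its ratio was 1.25 (1.17 to 1.34) over all members and 0.940 (0.866 to 1.02) in the stricter set.

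Summed transcripts of several other cell types differed between the libraries. The stricter set limited the platelet, T cell, B cell, NK cell and plasma cell lists but not the neutrophil list. The neutrophil list, led by S100a9, summed to 10247 CPM in WT and 4764 in APP/PS1, and to 6021 and 3639 CPM in the stricter set. There, 3 WT and 2 APP/PS1 members still held 100 or more UMIs of it. The platelet list, led by Pf4, summed to 1072 and 713 CPM, and to 398 and 627 CPM in the stricter set. T cell genes summed to 41.1 and 6.79 CPM and B cell genes to 62.5 and 10.2 CPM, and each list held at most 2 UMIs in either library of the stricter set. NK cell genes stood at 8.22 and 10.2 CPM, dendritic cell genes at 6.58 and 3.40 CPM, and plasma cell genes, nearly all Xbp1, at 123 and 71.3 CPM. Mast cell genes, nearly all Kit, stood at 19.7 and 44.1 CPM, and progenitor genes, led by Kit, at 31.2 and 54.3 CPM. The NK cell, dendritic cell, mast cell, progenitor and eosinophil lists held few UMIs, and the intervals of their ratios included 1.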

How the data were processed

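Blood cells of 3 pooled WT and 3 pooled APP/PS1 mice were measured in 1 library each. The authors deposited raw UMI counts per gene and cell for called barcodes, made with Cell Ranger 5.0.0 and the mm10 reference per the submitters' notes, without removing doublets, and no doublet caller was run here. Members' counts were summed per library and divided by their total to give CPM. The intervals are exact Poisson, Clopper-Pearson, Newcombe and conditional binomial at 95%, and genes with 50 or more UMIs in at least 1 library were counted against a fold of 2. For the shares given as thinned, cells were thinned to 1000 UMIs, with 2000 neutrophil-gene cells sampled per library. The other shares of members with a UMI used all UMIs of the members.

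Named genes were the 5 rule genes, the genes of the lists, the 15 highest against the monocyte-gene cells, and the 5 highest and 5 lowest ratios between genotypes. Cells with neutrophil genes were those at or over the S100a8 and S100a9 limit, and T or B cell classes needed 3 UMIs of their list. The monocyte, T cell and B cell classes also had to be under that limit and under 5 UMIs of the rule genes. The members and lists were chosen with earlier results of these data known. Gene names and IDs are those of the deposited files. Alternatives changed the marker, depth, mitochondrial and S100 limits, the scaling (TMM of edgeR 4.0.16, median of ratios) and the gene minimum. Python 3.11.15, numpy 2.4.6, scipy 1.17.1, pandas 2.3.3, matplotlib 3.10.9 and R 4.3.3 were used. The ratio intervals were tested on simulated Poisson counts, which held no spread between cells, so that spread is not covered by the test. Promoters came from RefSeq.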

Additional observations from a re-analysis of the deposited data

Results flagged for a closer look

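For 4 named genes the APP/PS1 to WT ratio of the basophils lay on the other side of 1 from that of another class of cells, with the intervals of all basophils, of the stricter set and of that class each off 1. With 1 library per genotype these differences between classes were not tested. The ratio of Prss34 was 0.363 in the basophils and 4.04 (2.84 to 5.87) in the cells with neutrophil genes, where its level was 0.979 CPM in WT and 3.95 in APP/PS1. The basophil value rested on 1 WT member, without which it was 2.48, and 0.854 in the stricter set. The other class rested on single cells too: 1 cell held 35 of its 39 WT UMIs and 1 held 161 of its 171 APP/PS1 UMIs, and all of them lay in the 15 WT and 3 APP/PS1 cells that met the rule's marker limit but not its S100 limit. The ratio of Ptgs2, the inducible cyclooxygenase, was 0.647 in the basophils and 0.682 in their stricter set, but 1.13 (1.12 to 1.15) in the cells with neutrophil genes and 1.73 (1.65 to 1.81) in those with monocyte genes. The ratio of Junb, an immediate early transcription factor, was 1.45 in the basophils and 1.44 in the stricter set, 1.28 (1.27 to 1.29) in the cells with neutrophil genes and 0.935 (0.925 to 0.946) in those with monocyte genes. Fosb, a partner of Jun, had a ratio of 1.74 in the basophils and 1.54 in the stricter set, beside 0.966 (0.946 to 0.985) in the cells with neutrophil genes and 0.808 (0.780 to 0.838) in those with monocyte genes.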

How the results depend on the processing

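The WT share of 0.448% was 0.154% when members with 3 or more UMIs of any other cell type list were left out, and 0.295% in the stricter set. The APP/PS1 share of 0.275% was 0.0837% in the first of these. After thinning to 1000 UMIs, with the marker limit also lowered to 2 UMIs, the WT share was 0.332%. That setting held 54 of 16281 WT cells and 35 of 16725 APP/PS1 cells. The 12 genes over 2-fold higher in APP/PS1 became 6 with S100a8 and S100a9 under 2%, 28 with no such limit, 6 between the 5th and 95th percentiles of depth, 4 in the stricter set, 6 by the mean over cells, 52 with a minimum of 20 UMIs, 6 with 100 and 1409 with no minimum. The 139 under 0.5 became 16 with 3 or more rule-gene UMIs, 43 under the 2% limit, 28 between the percentiles, 16 with under 3 UMIs of other lists, 13 in the stricter set, and 407, 51 and 1097 under the 3 minimums. The number of genes counted changed too, from 1823 to 905 between the percentiles, 591 in the stricter set and 330 with under 3 UMIs of other lists. The shares over 2-fold were 0.658%, 0.663%, 0.677% and 3.03% in that order. The shares under 0.5 were 7.62%, 3.09%, 2.2% and 4.85%. Reversed log2 ratios were those of Oasl2 (0.28 with 3 or more rule-gene UMIs, 0.024 under the 2% limit), Prss34 (0.85 with no S100 limit, 0.28 with under 3 UMIs of other lists, 1.31 without the top WT member), Plcg2 (2.28 with under 3 UMIs of other lists, 0.14 in the stricter set), H2-Aa (1.40) and H2-Eb1 (0.40, both in the stricter set). The cause was not tested. Of 2150 values for 103 genes under 21 settings, 1811 moved little, 330 moved and 9 reversed. The 9 are the reversed values listed above, all of genes whose ratio over all members was under 0.5. Ratios nearer to 1 that crossed it, such as that of Mcpt8 without the top WT member, are not among the 9. Of 72 named genes whose interval excluded 1, 17 of the 68 with a value in the stricter set lay on the other side there, against 10 with 3 or more rule-gene UMIs, 7 by the mean over cells, 2 without the top WT member and none under TMM, the median of ratios or without Kit-positive members. The stricter set, the sets without Kit-positive members and the sets without the top WT member were chosen after seeing the data. Few cells limit every value. Since 3 counts would correspond to 4.93 CPM in WT and 10.2 in APP/PS1, a gene with no UMI is not shown to be absent. No paired analysis was possible because each genotype had 1 library.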

Other observations

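Within the stricter set, genes outside the lists also differed between the libraries, and they are named here after their values were seen. Txnip, an inhibitor of thioredoxin that responds to glucose, stood at 303 CPM (234 to 387) in WT and 753 (624 to 900) in APP/PS1, a ratio of 2.48 (1.82 to 3.42), and 2.10 (1.71 to 2.58) over all members. In the cells with neutrophil genes its ratio was 1.26 and in those with monocyte genes 1.20. Chka, the choline kinase that starts phosphatidylcholine synthesis, had 74 UMIs in WT and 5 in APP/PS1, a ratio of 0.0894 (0.0282 to 0.218), beside 97 and 22 UMIs and a ratio of 0.468 (0.281 to 0.750) over all members. Hilpda, a lipid droplet protein induced by hypoxia, had 53 and 16 UMIs, a ratio of 0.400 (0.213 to 0.710), and 0.487 (0.269 to 0.836) over all members.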
